A study of Homo sapiens with 12 samples.

Results

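C10orf10 and MAP1B are 2 of the 23106 gene symbols counted in RCC4 cells, and were chosen because HIF1A siRNA and HIF2A siRNA, each given alone, lowered both of them. The study's limits for a target gene, an adjusted p under 0.1 and a minimum fall, were applied here to an edgeR fit of 9 libraries. The paper used DESeq2, so its own set of shared genes may differ. In the edgeR fit 184 genes met the limits for HIF1A siRNA and 20 for HIF2A siRNA. The minimum fall alone was passed in both single knockdowns by 515 genes. C10orf10 and MAP1B belong to the 5 genes that met the limits in both, out of 12830 genes tested, 0.039%. The other genes are VEGFA, SLC2A1 and C15orf48. The genes were thus chosen by their counts in the control and single knockdown libraries, and the single effects are given as a description, without a test. The double knockdown did not enter the choice.

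RCC4, an established line from a human clear cell kidney carcinoma, lacks working VHL, and both HIF-α proteins are present in it at normal oxygen. All dishes received pools of siRNA at 2 nM in total and were harvested at 48 h. The control group received 2 nM control siRNA. The HIF1A group received 1 nM HIF1A siRNA with 1 nM control siRNA, and the HIF2A group 1 nM siRNA against EPAS1, the gene of HIF-2α, with 1 nM control siRNA. The double knockdown received 1 nM of each HIF siRNA and no control siRNA, so that loss of the second HIF and absence of control siRNA cannot be told apart in it. There were 3 libraries per group, 12 in all, from 1 cell line, with replicate numbers that pair the groups.

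VHL marks the α subunits of HIF-1 and HIF-2 for destruction, and cells without it accumulate them. Each α subunit pairs with ARNT and binds DNA at the core ACGTG or GCGTG, so that HIF-1 and HIF-2 share many sites while differing in the genes that depend on them. C10orf10, now named DEPP1, encodes a small protein first described as induced by progesterone in the uterine lining. It is a known target of the FOXO transcription factors, which insulin signaling holds in check, and its product has been linked to autophagy, peroxisomes and the handling of hydrogen peroxide. MAP1B encodes a large microtubule-associated protein best known from growing axons, which is cut into a heavy chain and a light chain and stabilizes microtubules.

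The sequences before the annotated starts are shown because both genes fell with siRNAs against factors that bind a short DNA core. They are the 250 bases upstream of each RefSeq start (GRCh38.p14), written 5′ to 3′ on the strand of the gene, and capitals mark either HIF core or the FOXO core GTAAACA, searched on both strands.
C10orf10, chr10:44978810-44979059, minus strand: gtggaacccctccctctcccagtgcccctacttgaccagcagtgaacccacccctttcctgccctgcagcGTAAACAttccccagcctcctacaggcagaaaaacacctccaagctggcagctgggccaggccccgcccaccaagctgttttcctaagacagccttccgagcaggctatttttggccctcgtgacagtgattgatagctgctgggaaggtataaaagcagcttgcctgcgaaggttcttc
MAP1B, first start, chr5:72107225-72107474, plus strand: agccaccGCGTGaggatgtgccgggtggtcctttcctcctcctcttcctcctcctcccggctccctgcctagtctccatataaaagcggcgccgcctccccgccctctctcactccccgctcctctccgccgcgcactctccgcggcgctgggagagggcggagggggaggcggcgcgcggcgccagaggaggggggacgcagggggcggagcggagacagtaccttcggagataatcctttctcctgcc
MAP1B, second start, chr5:72179537-72179786, plus strand: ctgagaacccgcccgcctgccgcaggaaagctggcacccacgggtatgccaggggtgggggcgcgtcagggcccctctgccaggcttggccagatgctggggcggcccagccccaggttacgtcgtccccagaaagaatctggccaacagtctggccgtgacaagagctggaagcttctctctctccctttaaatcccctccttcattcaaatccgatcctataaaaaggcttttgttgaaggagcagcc

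The motifs were counted in 300 bases, these 250 and the first 50 after the start. The C10orf10 window held 1 match to GTAAACA, beginning 180 bases before the start, a motif found in 3.42% of 35114 RefSeq promoter windows. It held neither ACGTG nor GCGTG. The window of the first MAP1B start held 1 GCGTG, beginning 243 bases before the start, and 36.5% of windows hold that motif. The window of the second MAP1B start held 1 ACGTG on the other strand, 15 bases after the start and outside the printed stretch. ACGTG, also counted within CACGTG, is in 21.4% of windows, and ACGTG or GCGTG in 48.4%. The upstream stretch had 57.2% G and C at C10orf10, 70% at the first MAP1B start and 60.4% at the second. Counts per gene do not separate the MAP1B starts, and a match is not shown to be a site.

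C10orf10 lies on chromosome 10 in 2 exons and MAP1B on chromosome 5 in 7 exons (GENCODE, GRCh38, reference transcripts). Their transcripts measure 2120 and 11790 bases, and their coding parts hold 212 and 2468 codons. CPM are counts scaled to a common library total, so that they compare between libraries. Per length, the genes stood at like levels with control siRNA, at 25.3 ± 10.0 CPM per kilobase of transcript for C10orf10 and 23.9 ± 6.41 for MAP1B (SD, n = 3 each). In the double knockdown C10orf10 was at 4.64 ± 0.741 and MAP1B at 11.1 ± 3.40 on this scale (SD, n = 3 each).

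The libraries held 13263168 to 20451433 counts. HIF1A mRNA was at 58.2 to 120 CPM with control siRNA and at 24.2 to 32.2 CPM in the double knockdown. EPAS1 mRNA was at 138 to 171 CPM with control siRNA and at 7.01 to 11.3 CPM in the double knockdown. Within pairs the double knockdown left HIF1A at 20.1, 55.3 and 26.6% of control in replicates 1, 2 and 3, and EPAS1 at 5.25, 8.16 and 4.10%. Of 14 markers of renal epithelium and clear cell carcinoma, 11 were above 1 CPM in every library, among them PAX8 (197 to 315 CPM). CDH1 and LRP2 were at most at 0.482 and 0.201 CPM, and CUBN was at 0.502 to 2.09 CPM. Of these markers 12 were tested in the double knockdown against control siRNA. At an adjusted p under 0.05 by edgeR, 3 fell, 2 rose and 7 did not pass. Of all genes, 6.42% fell and 3.86% rose.

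C10orf10 fell with each siRNA and again when both were given. With control siRNA its level was 74.0, 55.2 and 31.7 CPM in replicates 1, 2 and 3. With HIF1A siRNA it was 32.4, 34.1 and 18.1 CPM, and with HIF2A siRNA 29.2, 30.7 and 15.6 CPM. In the double knockdown it was 11.6, 9.40 and 8.52 CPM. All 3 double knockdown libraries lay below the lowest library of each other group, and replicate 3 was the lowest library in all 4 groups. The group means were 53.6 ± 21.2 CPM with control siRNA, 28.2 ± 8.79 with HIF1A siRNA, 25.2 ± 8.32 with HIF2A siRNA and 9.83 ± 1.57 in the double knockdown (SD, n = 3 each). The levels behind these values rest on 125 to 1208 counts per library.

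**Figure D1:**
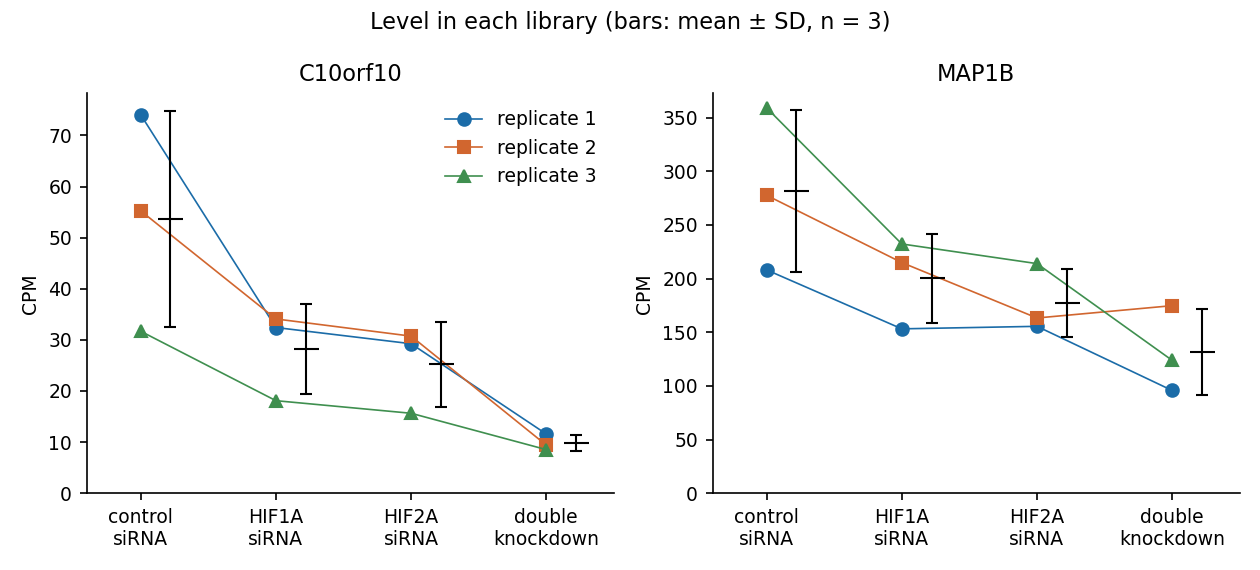
Levels of C10orf10 and MAP1B in CPM (vertical axis, from 0) in each library of the 4 groups, with lines joining libraries of the same replicate number and black bars for the mean ± SD (n = 3). The double knockdown libraries of C10orf10 sit between 8.52 and 11.6 CPM, below all others, while replicate 2 of MAP1B in the double knockdown stays at 175 CPM, above 2 libraries with HIF2A siRNA.

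MAP1B fell less, and its lowest group was less distinct. Its level with control siRNA was 208, 278 and 359 CPM in replicates 1, 2 and 3. HIF1A siRNA left 153, 215 and 232 CPM and HIF2A siRNA 156, 163 and 214 CPM. The double knockdown left 95.7, 175 and 124 CPM. Its highest library, replicate 2, lay below all control libraries but above the lowest library of each single knockdown. Replicate 1 was the lowest library in all 4 groups, unlike for C10orf10. The group means were 282 ± 75.6 CPM with control siRNA, 200 ± 41.6 with HIF1A siRNA, 178 ± 31.7 with HIF2A siRNA and 131 ± 40.1 in the double knockdown (SD, n = 3 each).

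Within pairs, HIF1A siRNA left C10orf10 at 43.8, 61.7 and 57.1% of control in replicates 1, 2 and 3, and HIF2A siRNA at 39.5, 55.6 and 49.3%. These correspond to fitted log2 fold changes of -0.90 (standard error 0.14) and -1.07 (standard error 0.14), from the fit of 9 libraries that chose the genes. MAP1B was left at 73.6, 77.4 and 64.7% by HIF1A siRNA and at 74.7, 58.8 and 59.6% by HIF2A siRNA, with log2 fold changes of -0.48 (standard error 0.12) and -0.63 (standard error 0.12). Ordered by the larger of the adjusted p-values of the single effects, C10orf10 came first and MAP1B last of the 5 genes inside both limits. These p-values made the choice, so the order only describes it and is no test of any gene. In size, the HIF1A siRNA effect on SLC2A1 (-0.41, standard error 0.099) was less than that on MAP1B. The next genes outside were LBH, with log2 fold changes of -0.75 and -0.95 for HIF1A and HIF2A siRNA, ADM, with -0.92 and -0.86, and RASSF4, with -1.31 and -0.74. LBH encodes a developmental transcription cofactor and ADM the vasodilator peptide adrenomedullin. HIF1A siRNA left HIF1A mRNA at 12.5, 30.6 and 19.9% of control in replicates 1, 2 and 3. HIF2A siRNA left EPAS1 mRNA at 5.63, 8.60 and 5.46%. EPAS1 itself was at 62.2 to 78.5% of control with HIF1A siRNA. HIF1A mRNA was at 92.2, 200 and 122% of control with HIF2A siRNA. The part of these last changes in the single effects on either gene was not tested.

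The single knockdowns were then set beside each other. The genes had to be low in both against the same controls, which constrains this difference, so it is given as a description without a test. For C10orf10 the level with HIF1A siRNA was 111, 111 and 116% of that with HIF2A siRNA in replicates 1, 2 and 3. The log2 difference was 0.17 (standard error 0.16, 95% interval -0.18 to 0.51). For MAP1B the level with HIF1A siRNA was 98.5, 132 and 109% of that with HIF2A siRNA, with a log2 difference of 0.15 (standard error 0.15, 95% interval -0.16 to 0.47). Over all genes, 1.92% passed edgeR's test of this difference (adjusted p under 0.05).

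The double knockdown lowered both genes against control siRNA. C10orf10 was left at 15.6, 17.0 and 26.9% of control within pairs, or -2.37 as a log2 fold change (standard error 0.17; Benjamini-Hochberg adjusted p = 4.5e-07 by the quasi-likelihood test of edgeR). It was the 58th lowest fold change of 13000 genes. MAP1B was left at 46.0, 63.0 and 34.5% of control, or -1.09 as a log2 fold change (standard error 0.15, adjusted p = 0.000264 in the same edgeR test), the 378th lowest. In this comparison 6.42% of all genes were lower and 3.86% higher at an adjusted p under 0.05, and 8.55% had double knockdown libraries that all lay below the control libraries, as both genes did. The control libraries are those against which the genes were chosen, which favors a fall. In the fit without a replicate block the adjusted p of MAP1B was 0.068 in edgeR's test.

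C10orf10 was also lower in the double knockdown than with either siRNA alone. Against HIF1A siRNA it was at 35.7, 27.6 and 47.1% within pairs, a log2 difference of -1.46 (standard error 0.17, Benjamini-Hochberg adjusted p = 0.000258 by edgeR). Against HIF2A siRNA it was at 39.6, 30.6 and 54.5%, a log2 difference of -1.30 (standard error 0.17, adjusted p = 0.00028 in that edgeR test). Of all genes, 0.969% were lower than with HIF1A siRNA and 3.22% lower than with HIF2A siRNA at this limit, and the double knockdown libraries lay below all libraries of the single knockdown for 4.46% and 5.52%. The genes were chosen for low values in the single knockdowns, which favors the opposite direction in these comparisons. Where no replicate block was used neither difference passed, with adjusted p of 0.302 and 0.183 in edgeR's test and log2 differences of -1.52 and -1.36.

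MAP1B did not pass the test against either siRNA alone. The double knockdown was at 62.5, 81.3 and 53.3% of the level with HIF1A siRNA, a log2 difference of -0.61 (standard error 0.15, 95% interval -0.93 to -0.29, Benjamini-Hochberg adjusted p = 0.0621 by edgeR). It was at 61.5, 107 and 57.9% of the level with HIF2A siRNA, a log2 difference of -0.45 (standard error 0.15, 95% interval -0.77 to -0.13, adjusted p = 0.12 in that edgeR test). The direction was down in 3 of 3 pairs against HIF1A siRNA and in 2 of 3 against HIF2A siRNA. The difference from HIF1A siRNA passed with all libraries kept in DESeq2 (adjusted p = 0.00753) and in edgeR without an expression filter (adjusted p = 0.0115) or in a fit of the 6 libraries compared (adjusted p = 4.9e-05). Both calls also changed with libraries left out. Without replicate 2 the log2 differences were -0.79 and -0.74, with adjusted p of 0.00163 and 0.00128 in edgeR's test, and without its double knockdown library alone they were -0.85 and -0.68, with adjusted p of 0.00547 and 0.0122. Without its HIF2A siRNA library they were -0.62 and -0.60, with adjusted p of 0.00814 and 0.0195. The difference from HIF1A siRNA also passed without replicate 1 of the control (adjusted p = 0.0498) or of HIF2A siRNA (adjusted p = 0.0407) in edgeR's test. In replicate 2 the double knockdown left HIF1A mRNA at 55.3% of control, the highest share of the 3 pairs, with a control level of 58.2 CPM, the lowest of the 3. The part of this in the MAP1B value was not tested.

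The single effects were multiplied within pairs to give the level that independent effects would leave. HIF1A mRNA in the double knockdown was at 161, 180 and 134% of that with HIF1A siRNA alone in replicates 1, 2 and 3 (28.7 ± 4.09 against 18.3 ± 3.62 CPM, SD, n = 3 each), with a log2 difference of 0.66 that did not pass (standard error 0.21, adjusted p = 0.182 by edgeR). The part of this in any comparison of the double with a single knockdown was not tested. For C10orf10 the product of the single effects was 17.3, 34.3 and 28.2% of control, and the double knockdown was at 90.4, 49.6 and 95.4% of the product. For MAP1B the product was 55.0, 45.5 and 38.5% of control, and the double knockdown was at 83.6, 138 and 89.5% of it. The departure from the product, tested as the interaction of the siRNAs, was -0.39 on the log2 scale for C10orf10 (standard error 0.23, 95% interval -0.88 to 0.10) and 0.03 for MAP1B (standard error 0.21, 95% interval -0.42 to 0.48). For both the adjusted p by edgeR was 0.999. The test called 0 of 13000 genes (0%), with 318 at an unadjusted p under 0.05 and 11 called by DESeq2. Choosing genes for low single effects favors a departure above 0.

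**Figure D2:**
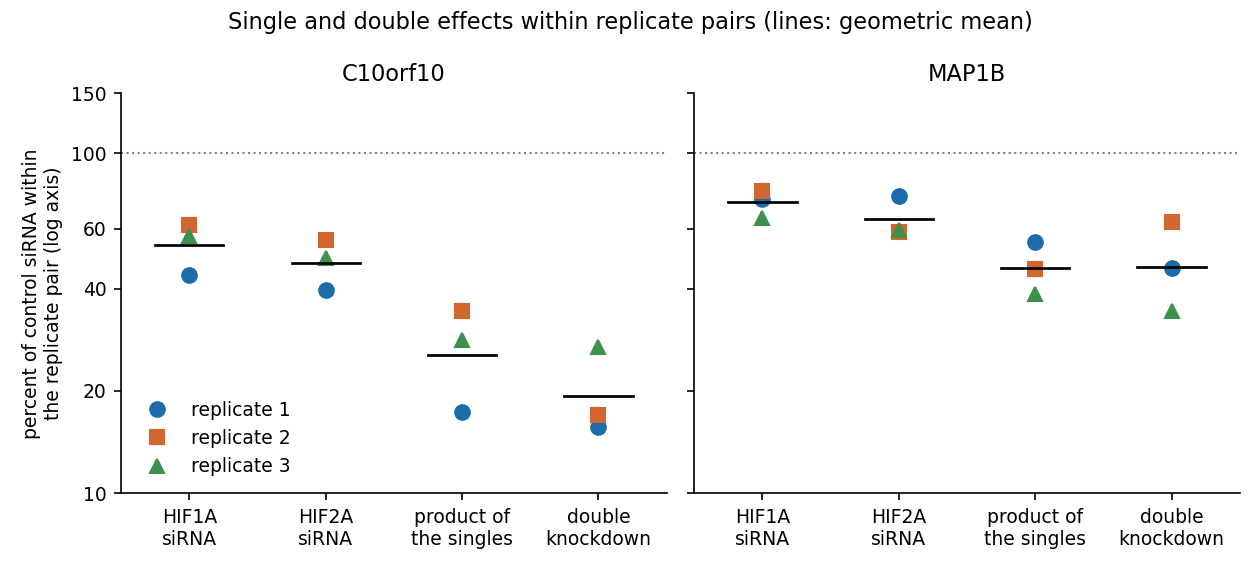
Level of C10orf10 and MAP1B as a percentage of control siRNA within each replicate pair (vertical log axis) for HIF1A siRNA, HIF2A siRNA, the product of the single effects and the double knockdown; points are replicates and lines geometric means. C10orf10 in the double knockdown lies at 15.6 to 26.9% of control against products of 17.3 to 34.3%, and MAP1B at 34.5 to 63.0% against 38.5 to 55.0%.

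The genes differed in how much of their variation lay between replicate numbers. For C10orf10, 81.1% of the variance of log2 CPM lay between siRNA treatments, 15.8% between replicate numbers and 3.08% in the remainder. For MAP1B these shares were 64.9, 24.3 and 10.7%. The medians over 13000 genes were 19.2, 46.4 and 24.2%. The share of the treatment follows in part from the choice of the genes. Across the 12 libraries the log2 CPM of the genes had a Pearson correlation of 0.53, and of 0.84 after the mean of each replicate number was subtracted. After the group means were removed as well it was -0.77. These libraries share groups and replicate numbers, and the choice made both genes low in the same groups, so the values only describe them.

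Other genes correlated more with either profile, a likeness of shape and not of size. Over the 12 libraries, with the replicate means subtracted and 10417 genes above a mean of 5 CPM, SDCBP (r = 0.995), STYK1 (0.991), RASSF2 (0.984), VEGFA (0.980) and UBA6 (0.975) correlated most with C10orf10. VEGFA, which encodes vascular endothelial growth factor A, kept a correlation of 0.96 without that subtraction, whereas SDCBP, which encodes the scaffold protein syntenin, had 0.28. In the fit of 12 libraries, SDCBP had log2 fold changes of -0.14, -0.16 and -0.35 for HIF1A siRNA, HIF2A siRNA and the double knockdown. These were far less than those of C10orf10, whose single effects above came from 9 libraries. STYK1 had -0.48, -0.59 and -1.32 in the 12-library fit. For MAP1B they included NT5E (0.977), CD274 (0.971), ZNF93 (0.965) and MYO1D (0.963). NT5E encodes the nucleotidase that makes adenosine at the cell surface and CD274 the immune checkpoint ligand PD-L1. The log2 fold changes of NT5E in the 12-library fit were -0.50, -0.56 and -1.34. MAP1B was 345th in the order for C10orf10, and C10orf10 173rd in that for MAP1B.

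RASSF4, a gene of the Ras association domain family, overlaps C10orf10 on the opposite strand. The exons of C10orf10 and RASSF4 share 0 bases in GENCODE (GRCh38), although the gene bodies overlap. The level of RASSF4 was 75.0, 71.1 and 44.7 CPM with control siRNA, 24.7, 34.0 and 18.0 CPM with HIF1A siRNA, 49.1, 36.1 and 27.5 CPM with HIF2A siRNA and 17.8, 19.2 and 14.1 CPM in the double knockdown, in replicates 1, 2 and 3. Like C10orf10, VEGFA and C15orf48, it was lowest in replicate 3 in all 4 groups, while MAP1B and SLC2A1 were not. The double knockdown lowered RASSF4 against control siRNA to a log2 fold change of -1.88 (standard error 0.16, Benjamini-Hochberg adjusted p = 2.04e-06 by edgeR). It was also lower than with HIF2A siRNA (log2 difference -1.12, adjusted p = 0.000433), while against HIF1A siRNA the log2 difference of -0.56 did not pass (adjusted p = 0.105 by edgeR). Without the replicate block the adjusted p against HIF2A siRNA was 0.162, and without replicate 2 of HIF2A siRNA that against HIF1A siRNA was 0.0291. The libraries were made with a strand-marking kit, but whether the counting used strand is not given in the sources used here. Fragments from unspliced RASSF4 RNA within C10orf10 exons therefore cannot be told apart from C10orf10, and their part in its values was not tested.

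The other neighbors of C10orf10 did not pass the test in the double knockdown. For ZNF22, which encodes a zinc finger protein, the log2 fold change was -0.05 (standard error 0.11), for C10orf25 0.20 (standard error 0.27) and for CXCL12, a chemokine gene at 0 to 20 counts per library, it was -0.19 (standard error 0.97). TMEM72 and LINC00841 had 0 counts in every library. Beside MAP1B, MCCC2 (0.11), PTCD2 (0.08), MRPS27 (0.23) and BDP1 (-0.31) did not pass either, and CARTPT and ZNF366 had 0 counts. MIR4803, which overlaps MAP1B, also had 0 counts.

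**Figure D3:**
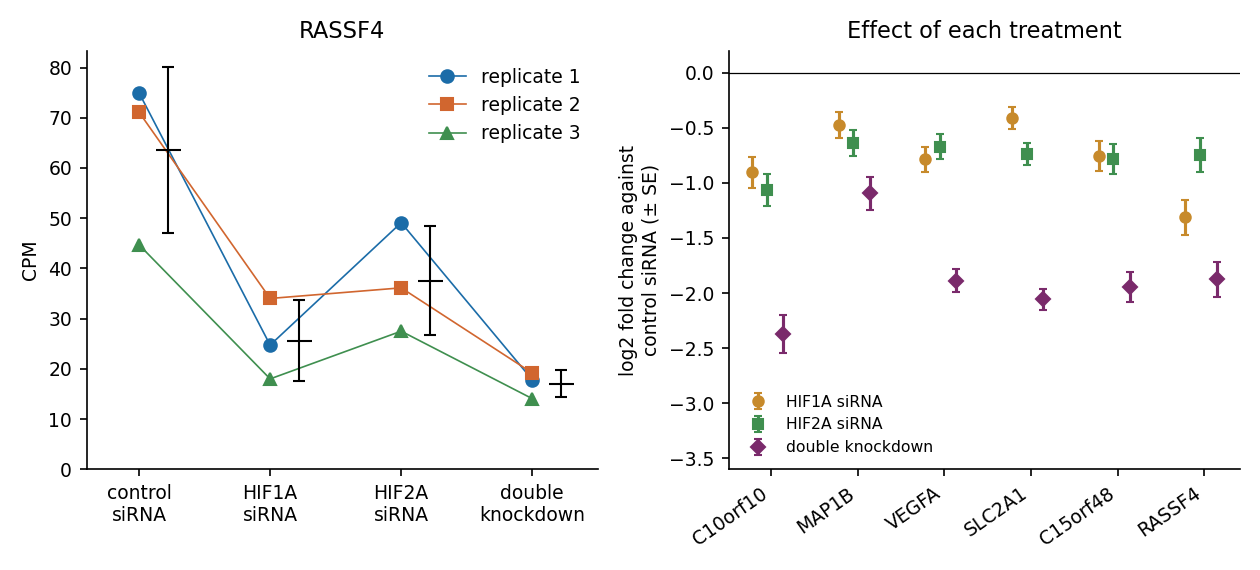
Left, RASSF4 in CPM in each library of the 4 groups, with the mean ± SD (n = 3) as black bars; right, log2 fold change against control siRNA (± standard error) of C10orf10, MAP1B, the other genes inside both limits and RASSF4 for HIF1A siRNA, HIF2A siRNA and the double knockdown. The double knockdown lies lowest for all 6 genes, from -2.37 for C10orf10 to -1.09 for MAP1B.

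The other genes inside both limits give a scale for the double knockdown. The share of all genes called is the one given above, and the comparisons use the same control libraries. VEGFA was at 234 ± 35.7 CPM with control siRNA and 63.0 ± 6.37 in the double knockdown, or -1.89 as a log2 fold change. SLC2A1, which encodes the glucose transporter GLUT1, was at 1569 ± 29.8 and 378 ± 44.3 CPM, or -2.06 as a log2 fold change. C15orf48, which encodes a small mitochondrial protein related to a subunit of cytochrome c oxidase, was at 118 ± 35.3 and 32.7 ± 16.8 CPM, or -1.95 as a log2 fold change (SD, n = 3 each). All 3 were lower in the double knockdown than with either siRNA alone, by log2 differences of -1.64 to -1.10 against HIF1A siRNA and -1.31 to -1.15 against HIF2A siRNA, with adjusted p between 3.33e-07 and 0.000258 in edgeR's test. C10orf10 thus had the lowest fold change of the 5 genes and MAP1B the least low, and whether they differ from each other in response was not tested. The departure from the product of the single effects was -0.90 on the log2 scale for SLC2A1 (standard error 0.13, adjusted p = 0.0649 by edgeR). It was -0.42 for VEGFA (standard error 0.14) and -0.40 for C15orf48 (standard error 0.19), each with an adjusted p of 0.999 in that edgeR test. None passed, and C10orf10 stood at -0.39 and MAP1B at 0.03.

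C10orf10 is a FOXO target, so the FOXO factors and their pathway were followed in the double knockdown against control siRNA. Of 16 genes tested among FOXO factors and the kinases upstream, 1 fell, 1 rose and 14 did not pass, where 6.42% of all genes fell and 3.86% rose, with a median log2 fold change of 0.0014 against 0.0048 over all genes. IRS2, whose product links the insulin receptor to PI3 kinase, fell from 298 ± 74.4 to 72.2 ± 26.3 CPM, or -2.09 as a log2 fold change (standard error 0.15, adjusted p = 3.17e-07 in edgeR's test). INSR, the insulin receptor gene, rose by 0.73 (standard error 0.17, adjusted p = 0.0139). FOXO3 was at 86.3 ± 12.8 and 69.7 ± 5.74 CPM (SD, n = 3 each, log2 fold change -0.30, adjusted p = 0.111 in edgeR's test), and FOXO1 at 0.558 to 0.903 and 0.602 to 1.82 CPM.

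Of 21 FOXO target genes tested, 4 fell and 2 rose, with a median log2 fold change of 0.013, against 6.42% of all genes lower and 3.86% higher. The fallen genes were BNIP3 (-2.34), a mitophagy receptor that is also a known HIF target, TXNIP (-0.59), an inhibitor of thioredoxin, CDKN1A (-0.44), the gene of the cell cycle inhibitor p21, and KLF6 (-0.39), a transcription factor. FBXO32 (0.78), which encodes a ubiquitin ligase of muscle wasting, and CITED2 (0.46), which encodes a competitor of HIF for its coactivators, rose. Of 34 genes of peroxide handling and peroxisomes, PEX6 (0.74) and GPX4 (0.38) rose, where 3.86% of all genes did, and 32 did not pass, with a median of 0.0047, among them CAT, the catalase gene, at 0.18 (standard error 0.10, adjusted p = 0.292 in edgeR's test). Against HIF1A siRNA, the members of these 3 lists that passed in the double knockdown were IRS2 (log2 difference -1.82) and FBXO32 (0.75), where 0.969% of all genes were lower and 0.431% higher. Against HIF2A siRNA they were BNIP3 (-2.44), TXNIP (-0.81) and IRS2 (-0.74), which were lower, and TNFSF10 (0.54), the gene of the death ligand TRAIL, and SGK1 (0.47), a kinase gene, which were higher, where 3.22% of all genes were lower and 0.785% higher.

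For MAP1B, its relatives and partners were followed in the same way. Of 39 other microtubule-associated proteins tested, MTUS1 (-0.88) and VASH1 (-0.78) fell, where 6.42% of all genes did, and 37 did not pass, with a median log2 fold change of -0.09. MTUS1 binds microtubules and VASH1 encodes an enzyme that removes the last tyrosine of α-tubulin. MAP1S, a close relative of MAP1B, was at 65.8 ± 6.03 CPM with control siRNA and 65.9 ± 7.05 in the double knockdown (SD, n = 3 each), or -0.01 as a log2 fold change with a 95% interval from -0.29 to 0.27. MAP1A, the nearest relative, was at 0.702 to 1.92 CPM with control siRNA and 0.974 to 1.67 in the double knockdown. Among 16 tubulins tested, TUBB6 (-0.84), TUBA1A (-0.50) and TUBB2A (-0.47) fell, against 6.42% of all genes, and 13 did not pass, with a median log2 fold change of -0.08. TUBB6 was at 448 ± 57.6 CPM with control siRNA and 253 ± 47.4 in the double knockdown (SD, n = 3 each). Of 19 genes whose proteins phosphorylate, bind or repress MAP1B, NDEL1 (0.69), which encodes a regulator of dynein, rose, against 3.86% of all genes, and 18 did not pass, with a median of 0.04. Against HIF1A siRNA, MTUS1 (-0.62) was lower in the double knockdown, where 0.969% of all genes were. Against HIF2A siRNA, VASH1 (-1.04), CAMSAP1 (-0.55), which encodes a protein of microtubule minus ends, and TUBB6 (-0.46) were lower, where 3.22% of all genes were. These are all the members of the lists of microtubule-associated proteins, tubulins and MAP1B regulators that passed against a single knockdown.

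**Figure D4:**
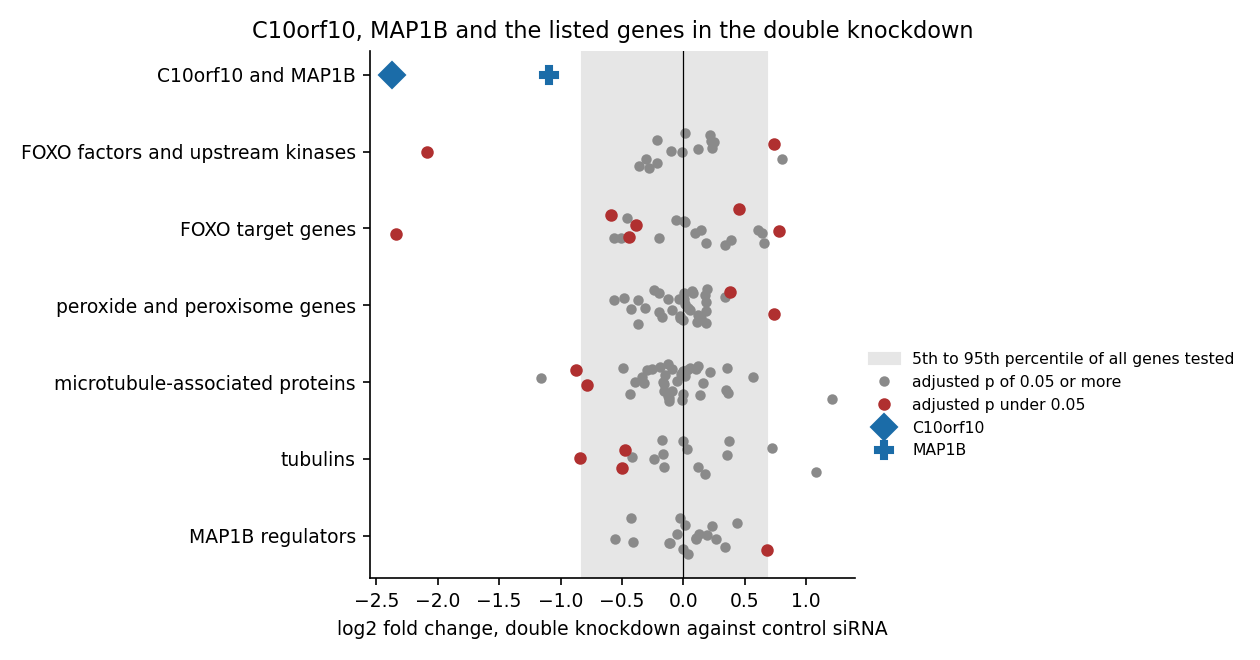
Log2 fold change in the double knockdown against control siRNA (horizontal axis) for the genes of 6 lists and for C10orf10 and MAP1B; each point is a gene, red points have an adjusted p under 0.05 and the grey band holds the 5th to 95th percentile of all genes tested. C10orf10 (-2.37) and MAP1B (-1.09) lie left of the band, as do IRS2 (-2.09) and BNIP3 (-2.34) among others.

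MAP1B is best known from neurons, and markers of other cell types were read beside it. Of 12 neuronal markers, only NEFL and NEFM were above 1 CPM in every library, and DCX, STMN2 and ELAVL4 had 0 counts in all 12. The summed level of the neuronal markers was 353 to 393 CPM with control siRNA, 304 to 329 with HIF1A siRNA, 318 to 369 with HIF2A siRNA and 207 to 246 in the double knockdown. NEFL, the gene of the light neurofilament chain, made up most of it, at 309 ± 27.8 CPM with control siRNA and 162 ± 9.26 in the double knockdown (SD, n = 3 each), or -0.93 as a log2 fold change (adjusted p = 6.83e-05 in edgeR's test). NEFM, the gene of the medium chain, had a log2 fold change of -0.02. The part of NEFL and of the podocyte markers in the MAP1B result was not tested. Of the podocyte markers, 4 of 6 were above 1 CPM in every library, and NPHS1 was at most at 0.127 CPM. In the double knockdown against control siRNA, 2 of the 4 tested fell, where 6.42% of all genes did, and 2 did not pass. The summed level of the podocyte markers was 195 to 283 CPM with control siRNA and 152 to 275 in the double knockdown. The summed level of 5 endothelial markers was at most 0.432 CPM. In bulk RNA a lower level in each cell and a smaller share of cells with the transcript cannot be told apart.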

How the data were processed

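Per the labels and the methods, the authors trimmed adaptors with Trim Galore (0.3.3), aligned reads to GRCh37 (hg19) with HISAT2 (2.05), removed non-uniquely mapped fragments with Picard (2.0.1), counted fragments per UCSC gene with HTSeq (0.5.4p3) (intersection-strict) and deposited the raw counts of 23106 symbols for each library, without normalization. The strand setting is not given in the sources used here.

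Counts were tested with edgeR's quasi-likelihood test (4.0.16, R 4.3.3), with TMM normalization (factors 0.980 to 1.02), edgeR's expression filter, a block for the replicate number, and Benjamini-Hochberg adjustment across all genes tested, called at an adjusted p under 0.05. The double knockdown, the interaction and the direct comparison of the siRNAs came from all 12 libraries (13000 genes), the single effects from the 9 libraries without the double knockdown (12830 genes). The single effects of SDCBP, STYK1 and NT5E were instead taken from the fit of all 12 libraries. Standard errors were the log2 fold change divided by the square root of F, and 95% intervals used the t distribution of the fit. CPM used library totals scaled by TMM factors, and 0.5 CPM was added before logarithms. The methods pair conditions by biological replicate. Libraries of different groups sharing a number deviated together from the group means (r across genes 0.0991 to 0.813, against -0.724 to 0.527 for different numbers). Nothing states that replicates were independent cultures beyond this. The p-values therefore measure the spread left between these libraries once group and replicate number are fitted. Only the fit without a block keeps the spread between replicate numbers. Replicates differed by more than sampling noise (chi-square per degree of freedom 16.3 to 122), and none was merged. The depth of 13263168 to 20451433 counts limits precision only for genes at a few counts.

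C10orf10 was matched to DEPP1 by its RefSeq synonym, and 2 of 2 genes had promoter sequences. The genes and lists were chosen with earlier results of these data known. Named genes were the pair itself, HIF1A and EPAS1, neighbors, genes inside or next outside both limits, list members that passed, FOXO1, FOXO3, MAP1A, MAP1S and the 5 genes of most similar profile. Markers came from the marker lists, and CAT was named after its value was seen. Some genes that the rule names are not reported here. The script was tested on simulated counts. Alternatives were DESeq2 size factors, DESeq2 (1.42.0), no filter, a minimum of 10 counts in each library, the fit without a block, other sets of libraries, and each replicate or library left out.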

Additional observations from a re-analysis of the deposited data

How the results depend on the processing

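In all 21 alternatives C10orf10 was lower in the double knockdown than with control siRNA at an adjusted p under 0.05 (log2 fold change -2.61 to -2.20). Its difference from each single knockdown and the fall of MAP1B against control siRNA passed in 20 of 21, the exception being the fit without the replicate number as a block. There the log2 values were -1.52 (C10orf10 against HIF1A siRNA), -1.36 (C10orf10 against HIF2A siRNA) and -1.10 (MAP1B against control siRNA), and 195 genes were called for the double knockdown against control, 8 against HIF1A siRNA, 90 against HIF2A siRNA and 55 between the siRNAs. The replicate block changed no other call of C10orf10 or MAP1B. MAP1B against HIF1A siRNA gained an adjusted p under 0.05 in 8 of 21 alternatives, among them no filter (-0.61), DESeq2 (-0.61) and a fit of the 6 libraries compared (-0.63), and against HIF2A siRNA in 3 of 21. With a replicate or library left out these values lay between -0.85 and -0.45 and between -0.74 and -0.29, and the interaction of MAP1B between -0.20 and 0.19, reversing in 4 of 20 alternatives. The cause was not tested. The single effects of both genes kept their direction in 18 of 18 alternatives.

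Counts of genes called moved more. Against control, 1336 genes were called in the double knockdown, 2609 in a fit of the 6 libraries compared and 302 to 2307 with a replicate or library left out. Against HIF1A siRNA there were 182, with 403 by DESeq2, 656 in 6 libraries and 26 to 442 with one left out. Against HIF2A siRNA there were 520, with 818, 164 and 158 to 672. Between the siRNAs there were 249, with 434 by DESeq2 and 107 to 311 with one left out. For the interaction there were 0, with 11 by DESeq2, 4 without a filter and 0 to 3 with one left out. The lists changed with these counts: FOXO target genes had 1 to 5 lower and 0 to 5 higher members, other microtubule-associated proteins 1 to 5 and 0 to 2, tubulins 0 to 3 and 0 to 1, genes of peroxide handling 0 to 4 and 0 to 2.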
